A study of Mus musculus with 10 samples.

Results

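The genes described are 9 that build or mark contractile perivascular cells: Myh11, Myl9, Mylk, Acta2, Tagln, Cnn1, Des, Rgs5 and Cspg4. They were picked by symbol from 19938 genes measured, and each had 1 probe set annotated with that symbol alone. Their RNA was read in osteoblastic lineage cells (OBCs), a sorted fraction of bone-forming cells and their precursors, from 5 BA mice and 5 control mice of the C57BL/6 strain. BA mice carry Scl-tTA and TRE-BCR/ABL, so that the tTA transactivator, driven by the Scl promoter, switches on the BCR/ABL oncogene once doxycycline is removed, and they develop a myeloproliferative neoplasm. Mice of both groups were taken off doxycycline at 5 weeks of age and their bones were collected 5 to 6 weeks later, and the genotype of the control mice is given only as control. The Scl promoter drives the transgene in blood-forming cells, so the profiled cells belong to the environment of the disease and are not its labelled target. Each array held amplified RNA from 500 to 2300 sorted cells of 1 mouse.

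Smooth muscle cells and pericytes wrap arteries and small vessels, including those of bone marrow. Contraction begins when myosin light chain kinase phosphorylates the regulatory light chain of smooth muscle myosin, which then pulls on filaments of alpha smooth muscle actin. The genes of this apparatus are switched on together by serum response factor (SRF) with its coactivator myocardin, which act through a DNA element called the CArG box. In mouse bone, Acta2 is also active in perivascular precursors that can become osteoblasts.

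Of the 10 arrays, 3 stood apart from the rest by markers of other cell types. BA replicate 5 had the highest mean level of blood cell markers and control replicate 5 that of endothelial markers. Control replicate 4 had the highest mean level of heart and skeletal muscle markers, through some of these genes only. The blood cell and endothelial lists likewise held genes that peaked on other arrays. Their values stand beside the results they touch.

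In BA cells 8 of the 9 genes had a lower mean than in control cells, as did 62.1% of all genes, and Cspg4 had a higher one. The median difference of the 9 genes was -0.92 on the log2 scale, where a difference is BA minus control, against -0.06 over all genes. The gaps were widest for Cnn1, Myh11, Acta2 and Myl9, at 2.93-fold, 2.63-fold, 2.61-fold and 2.58-fold lower levels in BA cells. No gene of the 9 passed an adjusted p of 0.05 over all genes in limma, a linear model that pools the spread across genes, and the smallest of their adjusted p-values was 0.384. That threshold was passed by 1 gene in all, which is 0.00502% of those tested, namely Snord38a, named after its value was seen. At an unadjusted p under 0.05, 5 of the 9 genes were lower in BA cells and 0 were higher, against 5.27% and 4.13% of all genes. These 5 were Myh11, Acta2, Tagln, Myl9 and Rgs5. The count was 5 without BA replicate 5, 7 without control replicate 5 and 6 with both of these arrays left out. The 9 genes were chosen with earlier results of these arrays known, so the count describes them and is no independent evidence.

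Promoter sequence from RefSeq (build GRCm38.p6) was matched by symbol for 7 of the 9 genes, all but Myh11 and Tagln. The 250 bases before each annotated start were searched on both strands. A strict CArG box was found in the promoter of Myl9 alone among the 7, and in 1.62% of the 27025 genes with such sequence. A wider search, set after the strict result had been seen, allowed 1 C or G within the 6-base core of A and T. It matched Acta2 and Myl9, and 9.78% of all genes. The promoters of Acta2 and Myl9 are shown because each holds 2 such matches, given in capitals, and because both genes were among those with the widest gap between the groups. The Acta2 stretch is chr19:34255374-34255477 on the minus strand and the Myl9 stretch chr2:156775283-156775463 on the plus strand, and both end at the base before the annotated start.
Acta2: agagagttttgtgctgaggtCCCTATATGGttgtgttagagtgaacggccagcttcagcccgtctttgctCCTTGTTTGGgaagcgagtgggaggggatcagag
Myl9: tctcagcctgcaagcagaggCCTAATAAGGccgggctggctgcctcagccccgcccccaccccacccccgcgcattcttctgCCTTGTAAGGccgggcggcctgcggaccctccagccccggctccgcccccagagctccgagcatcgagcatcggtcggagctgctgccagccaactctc
The Acta2 matches begin 84 and 34 bases before the annotated start and the Myl9 matches 161 and 99 bases before it. The word CATTCC, the MCAT element bound by TEAD factors, was present in Acta2 and Mylk among the 7 genes and in 14.4% of all genes. The word TGGGAA, the core bound by the Notch effector RBPJ, was present in Acta2 and in 24.1% of all genes, and its Acta2 copy overlaps the second CArG-like match. A match describes letters in this window and not a bound site.

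The motor protein and its light chain were both lower in BA cells. Myh11, the heavy chain of smooth muscle myosin, had log2 signals of 8.28, 8.39, 8.03, 8.36 and 6.77 on BA arrays 1 to 5, against 9.60, 9.0, 8.87, 10.18 and 9.16 on control arrays 1 to 5. All BA arrays lay below all control arrays, and BA replicate 5 lay well below the rest of its group. The difference was -1.40 ± 0.35 (SE), from means of 7.97 ± 0.68 in BA and 9.36 ± 0.53 in control cells (SD, n = 5 each; adjusted p = 0.384 in limma). The two-sided exact permutation test gave p = 0.00794, the smallest value that 5 against 5 arrays allow. Myl9, the regulatory light chain, stood at 9.57, 8.24, 8.99, 9.64 and 9.10 on the BA arrays, against 11.6, 9.74, 10.65, 10.91 and 9.48 on the control arrays. The groups overlapped through control replicate 5, which fell among the BA values. The Myl9 difference was -1.37 ± 0.41 (SE), with an exact permutation p of 0.0238 and an adjusted p of 0.452 in limma.

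Mylk, the kinase that phosphorylates this light chain, was at 7.85, 7.69, 7.43, 7.03 and 6.94 on the BA arrays, against 7.58, 8.05, 8.5, 7.92 and 7.43 on the control arrays. The groups overlapped widely, and only BA replicates 4 and 5 lay under the lowest control array. Its difference of -0.51 ± 0.24 (SE) had an exact permutation p of 0.103 and an adjusted p of 0.533 in limma.

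Of Acta2, Tagln and Cnn1, the thin filament genes among the 9, Acta2 alone had groups that were fully apart. Acta2, alpha smooth muscle actin, stood at 7.99, 8.62, 8.11, 8.89 and 6.76 on the BA arrays, against 9.84, 9.04, 9.11, 10.27 and 9.04 on the control arrays. BA replicate 4 came closest to the control range, at 8.89 under its lowest value of 9.04, and BA replicate 5 was the lowest array. The difference was -1.39 ± 0.40 (SE; adjusted p = 0.452 in limma), and the exact permutation p was 0.00794. Groups fully apart with BA below were seen for 2 of the 9 genes, Myh11 and Acta2, against 1.10% of all genes. Tagln, the actin-bundling protein transgelin, was at 6.63, 7.29, 6.5, 6.59 and 6.48 on the BA arrays, against 7.45, 7.55, 7.81, 8.37 and 6.90 on the control arrays. A single array in each group, BA replicate 2 and control replicate 5, crossed into the other range. Its difference was -0.92 ± 0.26 (SE), with an exact permutation p of 0.0159 and an adjusted p of 0.440 in limma.

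Cnn1, the actin-binding protein calponin 1, varied most between arrays. It stood at 6.21, 6.05, 6.97, 8.62 and 5.57 on the BA arrays, against 8.14, 7.61, 9.30, 10 and 6.12 on the control arrays. BA replicate 4 was as high as the middle control arrays, and control replicate 5 was as low as most BA arrays. The mean difference of -1.55 ± 0.76 (SE) was thus the largest of the 9 and had the largest SE, with an exact permutation p of 0.111 and an adjusted p of 0.534 in limma.

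**Figure D1:**
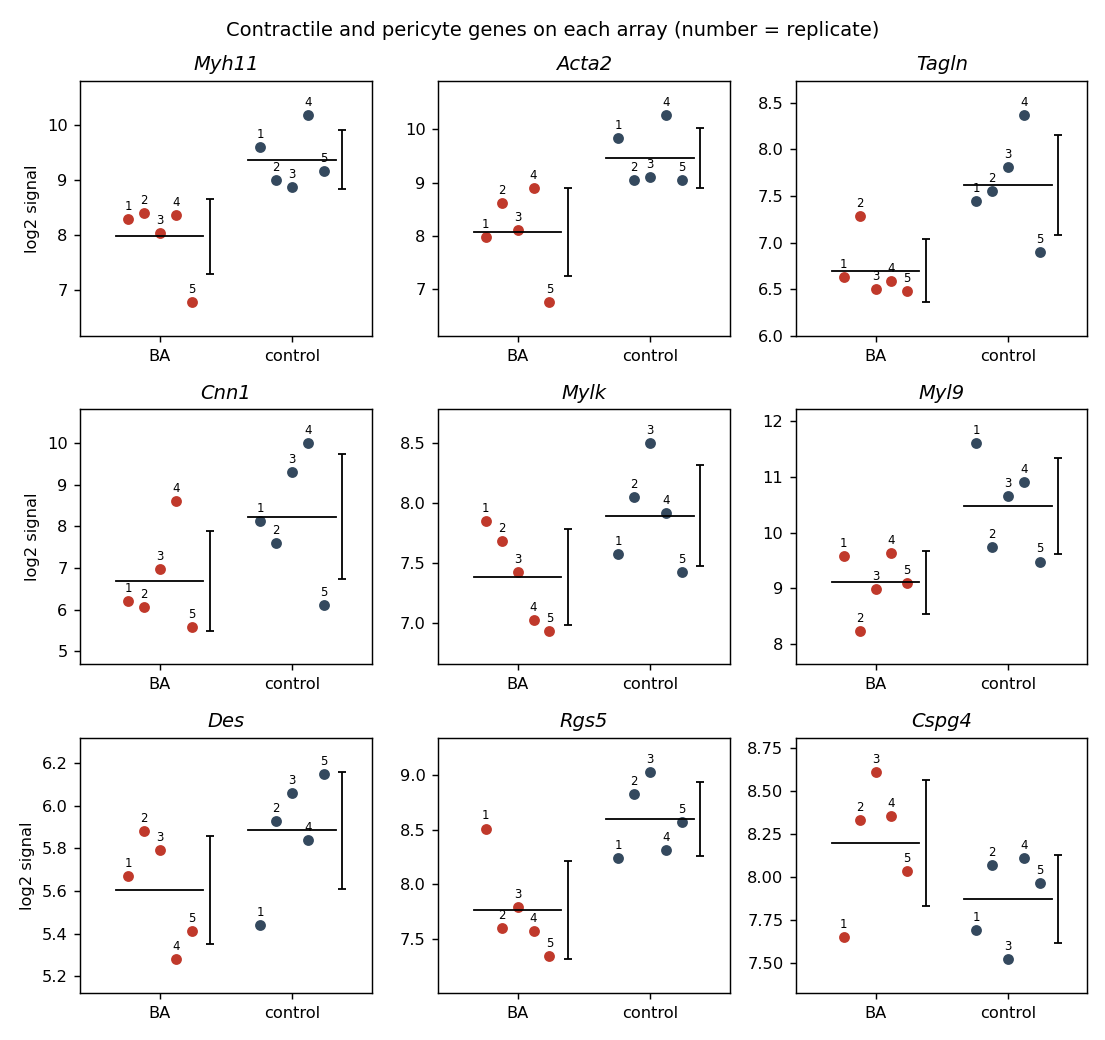
Log2 signal of each of the 9 genes on each array, with BA arrays in red on the left and control arrays in dark blue on the right; numbers give the replicate, horizontal lines the group mean and bars the SD (n = 5 each). All BA points of Myh11 and Acta2 lie below all control points, and the BA mean of Cspg4 lies above its control mean; the y axes differ between panels and do not start at 0.

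Of the pericyte markers, Rgs5 and Des had lower and Cspg4 a higher BA mean. Rgs5, a brake on G protein signalling that is enriched in pericytes, stood at 8.51, 7.60, 7.79, 7.57 and 7.34 on the BA arrays, against 8.24, 8.83, 9.03, 8.31 and 8.57 on the control arrays. BA replicate 1 lay within the control range and the other BA arrays lay below it. Its difference was -0.83 ± 0.23 (SE), or 1.78-fold lower in BA cells, with an exact permutation p of 0.0238 and an adjusted p of 0.424 in limma. Des, the intermediate filament protein desmin of all muscle types and many pericytes, was at 5.67, 5.88, 5.79, 5.28 and 5.41 on the BA arrays, against 5.44, 5.93, 6.06, 5.84 and 6.15 on the control arrays. The groups overlapped, and these signals lie around the array medians over all probe sets, 5.91 to 6.02. The Des difference of -0.28 ± 0.16 (SE) had an exact permutation p of 0.135 and an adjusted p of 0.567 in limma.

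Cspg4, the NG2 proteoglycan found on the surface of pericytes and also of cartilage cells, stood at 7.65, 8.33, 8.61, 8.35 and 8.03 on the BA arrays, against 7.69, 8.07, 7.52, 8.11 and 7.96 on the control arrays. BA replicates 2 to 4 lay above every control array and BA replicate 1 near the bottom of the control range. Its difference of 0.32 ± 0.19 (SE) had an exact permutation p of 0.159 and an adjusted p of 0.565 in limma. Of the 10 cartilage genes listed as markers, 9 also had higher BA means, whereas 62.1% of all genes had lower ones. Their median difference was 0.14. At an unadjusted p under 0.05, 0 were lower and 0 higher, against 5.27% and 4.13% of all genes. Any part of cartilage cells in the Cspg4 value was not tested.

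Of 26 further genes of the contractile apparatus 25 were measured. Their BA means were lower for 21, against 62.1% of all genes, with a median difference of -0.33. At an unadjusted p under 0.05, 8 were lower and 1 was higher, against 5.27% and 4.13% of all genes, and none passed over all genes (smallest adjusted p = 0.384 in limma). Ppp1r14a (CPI-17), an inhibitor of myosin phosphatase that sustains contraction, was at 5.84 to 6.55 on the BA arrays and at 6.49 to 9.20 on the control arrays, a difference of -1.77 ± 0.42 (SE). Tpm1, a tropomyosin that lies along the actin filament, differed by -0.49 ± 0.13 (SE), with all BA arrays below all control arrays. The same separation held for Npnt, the integrin ligand nephronectin, at -0.33 ± 0.08 (SE). It also held for Synm, the intermediate filament protein synemin, at -0.34 ± 0.11 (SE), which is named after its values were seen. For Synm it was narrow, with the highest BA array at 6.85 and the lowest control array at 6.88. Groups fully apart with BA below were thus seen for 3 of the 25 genes, against 1.10% of all genes. Hspb6, a small heat shock protein of muscle, was the gene on the other side, at 7.23 to 7.66 on the BA arrays and 6.54 to 7.27 on the control arrays, with a difference of 0.70 ± 0.15 (SE).

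**Figure D2:**
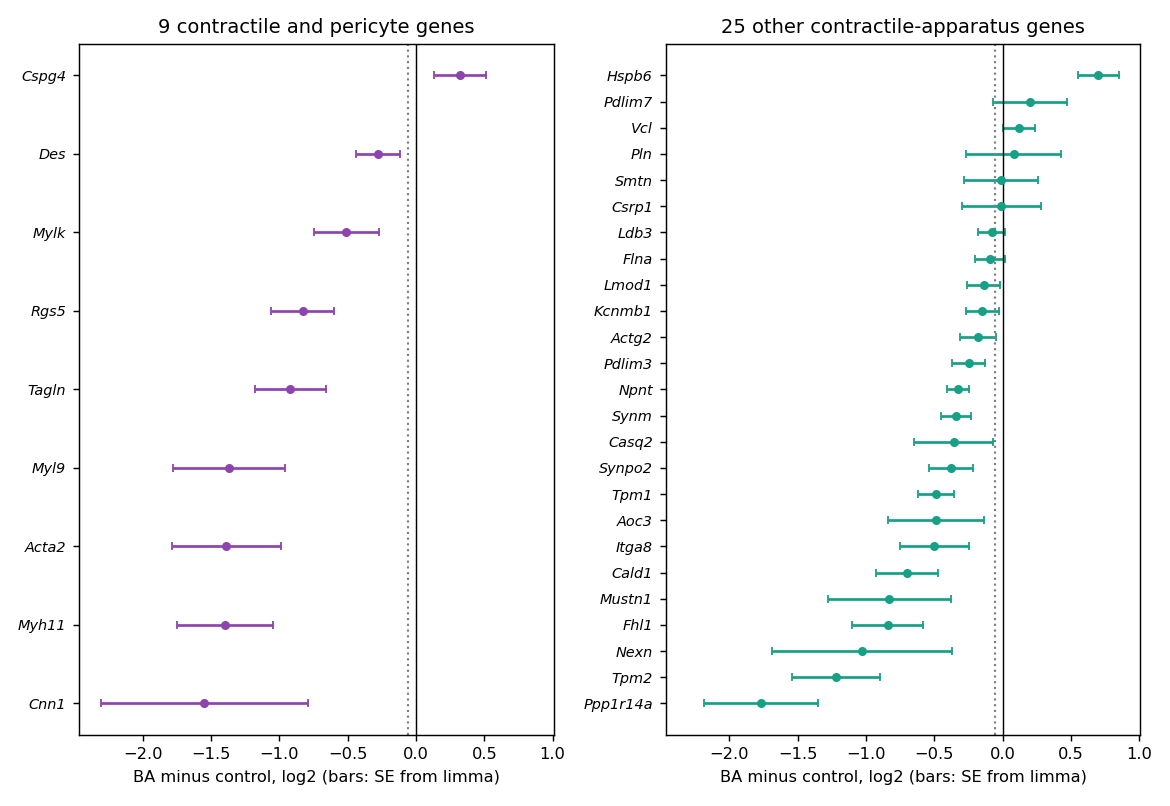
Difference between groups (BA minus control, log2) with its standard error from limma for the 9 genes (left) and the 25 other measured genes of the contractile apparatus (right), sorted by size; the solid line marks 0 and the dotted line the median over all genes, -0.06. The 9 genes run from 0.32 for Cspg4 to -1.55 for Cnn1, and the others from 0.70 for Hspb6 to -1.77 for Ppp1r14a.

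The general machinery of myosin phosphorylation, which most cells use, had higher and lower BA means in like number. Of 20 genes listed 17 were measured, 8 with lower and 9 with higher BA means, where 62.1% of all genes were lower. The median difference was 0.00. Gucy1b1, a subunit of the nitric oxide receptor that relaxes smooth muscle, differed by -0.32 ± 0.11 (SE) with all BA arrays below all control arrays. This separation was narrow, with the highest BA array at 4.17 and the lowest control array at 4.19. All Gucy1b1 signals, 3.88 to 4.63, lay below every array median over all probe sets, 5.91 to 6.02. Whether Gucy1b1 was detected is unknown. Its partner Gucy1a1 differed by -0.34 ± 0.18 (SE). Ppp1r12b, a targeting subunit of myosin phosphatase, differed by 0.29 ± 0.09 (SE), but by -0.20 when the probe sets of the gene were averaged. The 11 measured genes of the general actin cytoskeleton had a median difference of -0.01. At an unadjusted p under 0.05, 1 was lower and 2 were higher, against 5.27% and 4.13% of all genes. Among these, Actn1 (alpha-actinin 1) differed by -0.80 ± 0.28 (SE), and Tpm3, a tropomyosin of most cell types, by 0.36 ± 0.09 (SE), its BA arrays lying wholly above the control arrays, as for 0.567% of all genes. A difference between these lists and the 9 genes was not tested.

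The 16 listed regulators of the contractile genes, SRF cofactors and Notch genes among them, had 9 lower and 7 higher BA means. Over all genes 62.1% were lower. The regulators had a median difference of -0.07. At an unadjusted p under 0.05, 4 were higher and 1 lower, against 4.13% and 5.27% of all genes. Srf itself stood at 6.41 to 7.36 on the BA arrays and at 6.22 to 6.57 on the control arrays, a difference of 0.42 ± 0.17 (SE; adjusted p = 0.507 in limma). Elk4, an SRF partner of the growth response, differed by 0.38 ± 0.15 (SE). Klf4, which represses contractile genes in smooth muscle, is named outside the rule for small p-values and differed by 0.31 ± 0.14 (SE). Its relative Klf5 differed by 0.33 ± 0.10 (SE). Myocd, the myocardin gene, also named outside the rule, was at 4.72 to 4.98 on the BA arrays and at 4.70 to 5.12 on the control arrays, a difference of -0.11 ± 0.11 (SE). These signals lay below every array median over all probe sets, 5.91 to 6.02, and whether Myocd was detected is unknown. Notch3, the Notch receptor of mural cells, differed by -0.33 ± 0.10 (SE).

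Further pericyte genes differed in both directions. Of 22 listed 21 were measured, and 16 had lower BA means, against 62.1% of all genes, with a median difference of -0.14. At an unadjusted p under 0.05, 4 were lower and 0 higher, against 5.27% and 4.13% of all genes. Beside Notch3, these 4 were Abcc9, a channel subunit typical of pericytes (-0.41 ± 0.13, SE), Ebf1, a transcription factor of marrow stroma and pericytes (-1.31 ± 0.49, SE), and Cygb, the haem protein cytoglobin (-0.48 ± 0.18, SE). The widest gap in the list was in the other direction, for Ndufa4l2, named after its values were seen, at 8.72 to 10.29 on the BA arrays and 6.29 to 9.81 on the control arrays (1.41 ± 0.74, SE; adjusted p = 0.546 in limma).

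The sorted cells are labelled as osteoblastic, and their signal for Col1a1, the chief bone collagen, averaged 9.40 ± 0.78 in BA and 10.65 ± 0.33 in control cells (SD, n = 5 each). Of 11 osteoblast markers listed 7 were measured, with 5 lower BA means, against 62.1% of all genes, and a median difference of -0.30. At an unadjusted p under 0.05, 3 were lower and 0 higher, against 5.27% and 4.13% of all genes. These 3 were Col1a1, with the widest gap at -1.25, Phex (-1.12 ± 0.44, SE) and Dmp1 (-0.42 ± 0.17, SE). The alkaline phosphatase gene Alpl differed by 0.47. The bone sialoprotein gene Ibsp and the osteoblast transcription factor gene Sp7, named outside the rule for small p-values, differed by -0.01 and 0.03. Markers of other cell types differed on some arrays where these genes were lowest or highest. For lists, levels by array are given as the mean deviation of the listed genes from their own mean over the 10 arrays. The 9 genes were lowest on BA replicate 5, at -1.0, against -0.37 to -0.12 on the other BA arrays and -0.07 to 0.94 on the control arrays, and 6 of the 9 had their lowest value on that array. The same array had the highest level of the 12 pan-haematopoietic markers, at 1.66, against -0.36 to 0.04 on the other BA arrays and -0.70 to 0.22 on the control arrays. Ptprc, the pan-leukocyte antigen CD45 that was stained in the sort, was at 9.29 there and between 5.54 and 5.90 on all other arrays. Without that array the differences were -1.10 for Myh11, -1.06 for Acta2, -0.86 for Tagln and -1.37 for Myl9. With the average of these 12 markers as a covariate they were -1.01, -0.95, -0.75 and -1.32 in the same order. Of the 12 markers 9 had higher BA means, where 62.1% of all genes had lower ones, with a median difference of 0.38. At an unadjusted p under 0.05, 1 was higher and 0 lower, against 4.13% and 5.27% of all genes. That marker, Arhgdib, was at 10.90 to 12.35 on the BA arrays and 10.10 to 11.19 on the control arrays (1.04 ± 0.29, SE).

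At the other end, control replicate 4 had the highest level of the 9 genes, at 0.94, and the highest value of 4 of them. It also had the highest level of the 8 cardiac muscle markers, at 0.54 against -0.35 to 0.13 on the other arrays, and of the 14 skeletal muscle markers, at 0.39 against -0.21 to 0.19. Tnnt2, the troponin T of heart, named for this array after its values were seen, was at 9.14 on this array and between 6.45 and 7.03 on all others. Actc1, Tnnc2 and Pvalb, named likewise, were at 8.46, 8.41 and 7.47 there, against at most 6.81, 6.71 and 5.84 elsewhere. Most other genes of both lists did not peak on this array. Mybpc3 had its lowest value of the 10 arrays there, at 6.05, and Ckm peaked on control replicate 5, at 7.4. Over all arrays the skeletal markers had 13 of 14 lower BA means, median difference -0.23, and the cardiac markers 8 of 8, median -0.22. Over all genes 62.1% were lower, a share that takes no account of signal level. Array means of these lists, 6.09 to 6.70 and 5.90 to 6.79, lay near or somewhat above the array medians over all probe sets, 5.91 to 6.02. The all-gene median difference was -0.06, but 0.00 among genes with a mean above the median. At an unadjusted p under 0.05, 2 skeletal and 1 cardiac markers were lower and 0 higher, against 5.27% and 4.13% of all genes. Tnni2, a fast skeletal troponin I, was at 9.11, 9.39, 9.14, 9.02 and 8.95 on the BA arrays, against 9.82, 9.70, 9.48, 9.77 and 9.87 on the control arrays. Its groups were fully apart with BA below, as for 1 of the 14 skeletal markers and 1.10% of all genes. Control replicate 4 was not its highest array, and the difference was -0.61 ± 0.11 (SE; adjusted p = 0.281 in limma). Without control replicate 4 the differences were -1.19 for Myh11, -1.18 for Acta2, -0.73 for Tagln and -1.11 for Cnn1. The part of striated muscle RNA in these values was not tested further.

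The mean over the 14 endothelial markers overlapped between the groups, with array values of 5.57 to 5.84 in BA and 5.65 to 6.04 in control cells. Of these markers 11 had lower BA means, against 62.1% of all genes, and the median difference was -0.08. At an unadjusted p under 0.05, 0 were lower and 0 higher, against 5.27% and 4.13% of all genes. Control replicate 5 had the highest endothelial mean, and Pecam1 (CD31), a stained antigen, was at 6.94 there and between 5.46 and 5.99 elsewhere. Tek, Tie1, Esam, Plvap, Robo4 and Sox17 also peaked there, whereas Cdh5, Kdr, Emcn, Vwf, Eng, Cldn5 and Egfl7 did not. Itgav (CD51), the integrin subunit stained in the sort, was at 9.30 to 9.77 on the BA arrays and 8.45 to 9.42 on the control arrays, a difference of 0.77 ± 0.19 (SE; adjusted p = 0.384 in limma), and its part in the other differences was not tested. Control replicate 5 was the lowest control array for Tagln, Cnn1, Mylk and Myl9. Markers of Lepr- and Cxcl12-expressing stroma, the reticular cells that support blood stem cells, had 11 of 12 lower BA means, against 62.1% of all genes. Their median difference was -1.07. At an unadjusted p under 0.05, 4 were lower and 0 higher, against 5.27% and 4.13% of all genes. These 4 were Adipoq (-2.13 ± 0.53, SE), Lepr (-1.99 ± 0.60, SE), Cxcl12 (-1.60 ± 0.59, SE) and Foxc1 (-0.66 ± 0.26, SE). Levels of the stromal list overlapped between the groups, at -1.17 to 0.21 on the BA arrays and -0.53 to 1.36 on the control arrays. BA replicate 5 was the lowest array for the stromal list, at -1.17, as it was for the 9 genes. Control replicate 4, the highest array for the 9 genes, was at -0.31 for the stromal list, under control replicates 1 and 2 at 1.31 and 1.36. Since each array measures a pool of sorted cells, fewer cells of a type and less RNA per cell cannot be told apart.

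**Figure D3:**
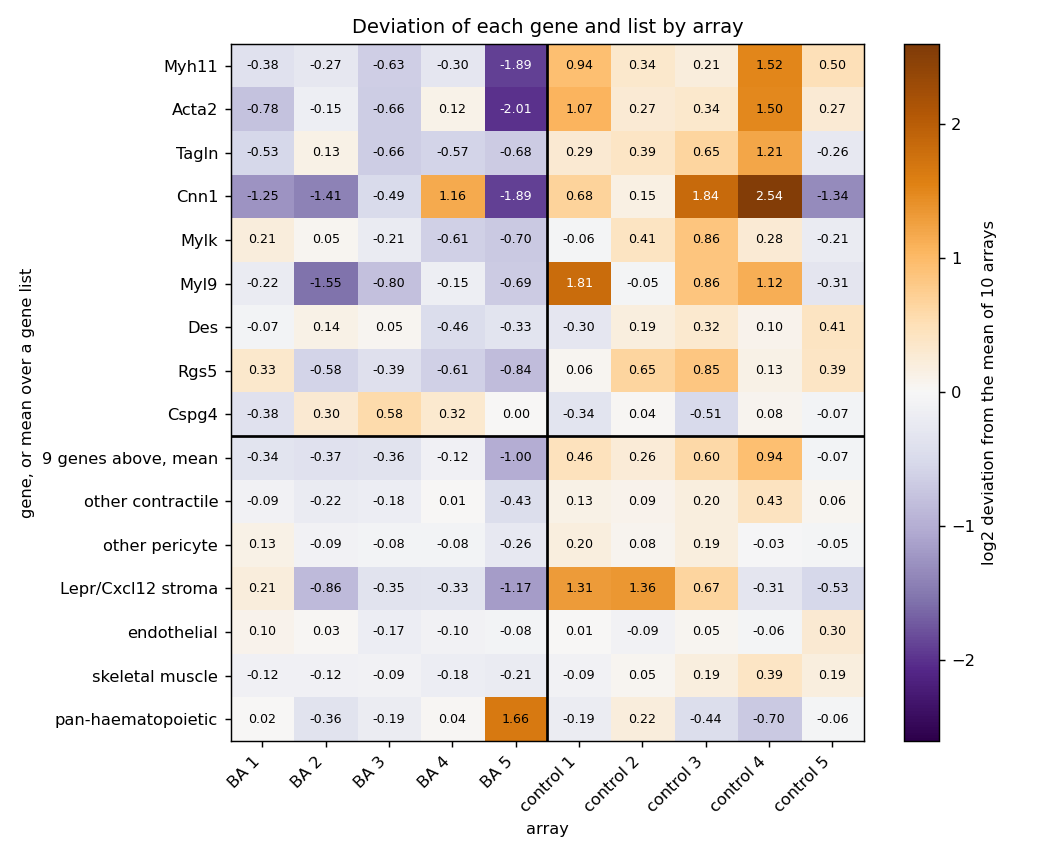
Deviation of each of the 9 genes (upper block) and of the means of these 9 genes and of 6 other gene lists (lower block) from their mean over the 10 arrays, in log2 units, with BA arrays left of control arrays. BA 5 is lowest for the 9 genes (-1.0) and highest for pan-haematopoietic markers (1.66), while control 4 is highest for the 9 genes (0.94).

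Xist, which is transcribed from the inactive X chromosome, split each group in 2. Its signal was at 9.81 to 10.7 on 3 BA and 2 control arrays and at 3.85 to 5.08 on 2 BA and 3 control arrays. Within the first set 8 of the 9 genes had lower BA means, with a median difference of -0.94, and within the second again 8 of 9, with a median of -1.0. In both sets Cspg4 was the exception.

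Variation among mice of the same group showed which of the 9 genes went together. For this, each value was taken as the deviation from the mean of its own group, over the 10 arrays. Across the 36 pairs of genes, r ranged from -0.77 to 0.94 with a median of 0.15. Myh11 and Acta2 were the closest pair, with Pearson's r = 0.94 (permutation p = 0.00028, adjusted p = 0.0101 over the 36 pairs) and Spearman's rho = 0.89 (permutation p = 0.00138, adjusted p = 0.0497). Without the 2 arrays farthest from the median of Myh11, BA replicate 5 and control replicate 4, r was 0.85. No other pair passed the adjustment. The permutations shuffled group-centred deviations across both groups, so these p-values are approximate and may be too small. The adjusted p of 0.0497 for rho lay next to the threshold of 0.05 and came from random resamples. Mylk and Rgs5 had r = 0.75 (permutation p = 0.0144, adjusted p = 0.172) and rho = 0.71 (permutation p = 0.0286, adjusted p = 0.235). Rgs5 had r between -0.16 and -0.01 with Myh11, Acta2, Tagln and Cnn1, although all of these had lower BA means.

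**Figure D4:**
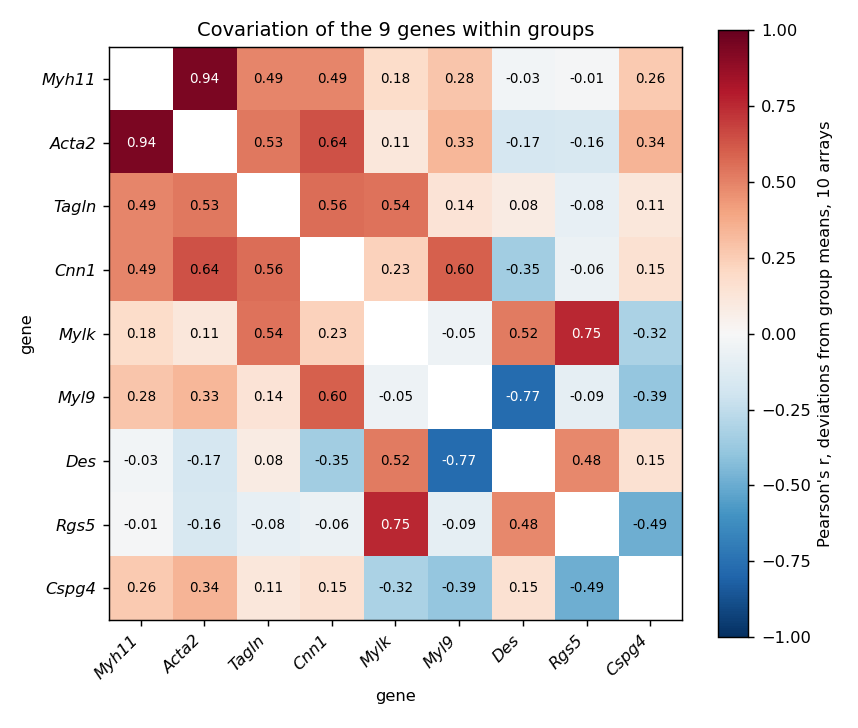
Pearson's r between each pair of the 9 genes, computed over 10 arrays from deviations from the group mean, so that the difference between BA and control cells does not enter. Myh11 and Acta2 are the closest pair (0.94) and Myl9 and Des the most opposed (-0.77).

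Across all other genes, those most like the mean of the 9 genes by the same measure (r over 10 arrays) were Lrrc4b (0.92), Tpm2 (0.91), Pde10a (0.91), Herpud2 (0.90), Sirt4 (0.90), Max (0.88), Ttc19 (0.88) and Sema3e (0.88). Tpm2, the beta tropomyosin of muscle, is the 1 gene of these on the list of other contractile genes. It stood at 7.74, 7.88, 7.65, 8.47 and 6.58 on the BA arrays, against 9.02, 8.85, 9.05, 9.27 and 8.22 on the control arrays. Only BA replicate 4 reached into the control range, and the difference was -1.22 ± 0.32 (SE; adjusted p = 0.384 in limma), or 2.33-fold lower in BA cells. Lrrc4b, by contrast, moved over a span of 7.66 to 7.87 on the BA arrays and 7.69 to 7.89 on the control arrays, with a difference of -0.01 ± 0.08 (SE), so a high r here says nothing of size. These genes are the closest of all those compared, and their r is a description.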

How the data were processed

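RNA of 10 mice was amplified and hybridised to Affymetrix mouse Gene ST 1.0 arrays, 1 array per mouse, per the labels. The deposited values are log2 signals that the authors made with GCRMA, per the submitters' processing notes, with the version not given in the sources used here. That the scale is log2 is read from the span of 1.21 to 13.7. There were 35557 probe sets with 0 missing values, of which 21789 had 1 gene symbol in the platform annotation. Where a gene had several such probe sets, the one highest on average was kept, leaving 19938 genes. Without detection calls, signal over background is unknown, and precision is limited by the number of arrays. Probe set levels are not comparable between genes.

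BA was compared with control with limma (version 3.58.1, R 4.3.3) by a two-sided moderated test with no covariate, with Benjamini-Hochberg adjustment over all genes and a threshold of 0.05. Single genes were also tested by exact permutation over the 252 splits of 5 against 5. The fitting code was tested on simulated data. The 9 genes and the other lists were chosen with earlier results of these data known. Of 191 list entries, 180 matched a measured gene. From each list up to 4 genes with the smallest p are named, and others are said to be outside that rule. Likeness is Pearson's r over deviations from group means, leaving out predicted genes, receptor families and small RNAs, with permutation p-values from 100000 resamples for the 36 pairs. Replicate numbers are shared by the groups. Over deviations from group means, r between same-numbered arrays ran from -0.097 to 0.112, with 1 of 5 over 0.1. Xist was high or low alike on same-numbered arrays, except those numbered 2. The main fit did not treat same-numbered arrays as pairs. A fit with the replicate number as a block is given among the alternatives.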

Additional observations from a re-analysis of the deposited data

Results flagged for a closer look

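Each of the 9 genes, and their mean deviation, was checked in each group for an array far from its group (20 checks, of which chance flags about 1 in 20), and 3 values on 2 arrays stood out. Myh11 was at 6.77 on BA replicate 5, with the other BA arrays at 8.03 to 8.39. The mean deviation of the 9 genes was -1.0 on the same array, against -0.37 to -0.12 on the other BA arrays. Tagln was at 7.29 on BA replicate 2, above the other BA arrays at 6.48 to 6.63.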

How the results depend on the processing

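No gene of the 9 passed the adjusted threshold or changed direction under any of the alternatives run, 21 for each gene and 20 for Des, which the filter on dim genes removed. Myh11, Acta2, Tagln, Myl9 and Rgs5 had an unadjusted p under 0.05 in limma under all 21, Cnn1 under 6, Mylk under 7, and Des and Cspg4 under 1 each. The number of the 9 lower at that p was 5 to 7 and their median difference -1.14 to -0.76. The difference of Cnn1 ran from -2.08 without control replicate 5 to -1.05 with the pan-haematopoietic covariate. Over all genes, the number past the threshold was 1. It was 0 with the replicate block, among genes with a mean above the median, with the pan-haematopoietic or the endothelial covariate and without BA replicate 5 and control replicate 5 together (an alternative chosen after seeing the data), and 2 with the Xist covariate. Leaving out 1 array at a time gave 0 to 13. It was 0 when BA replicate 3, BA replicate 5, control replicate 2 or control replicate 5 was left out, 2 without BA replicate 1 and without control replicate 4, and 13 without BA replicate 4. With the replicate block, 7 of the 9 genes were lower at an unadjusted p under 0.05, and 3 of 10 arrays correlated best with their own number. The unadjusted p in limma was then 0.000586 for Cnn1, against 0.0677 without the block, and 0.000824 for Myl9, against 0.00745. It also fell for Myh11, Acta2 and Mylk and rose for Tagln, Rgs5, Des and Cspg4. Among genes named beside the 9, Ppp1r12b turned to -0.20 with the mean of its probe sets. Lrrc4b, near 0, turned to 0.02 with median centring, 0.04 with the pan-haematopoietic covariate, 0.01 without control replicate 3 or 4 and 0.02 without BA replicate 5, with a range of -0.04 to 0.02 over the arrays left out. Pde10a turned to 0.05 with the pan-haematopoietic covariate, 0.03 without control replicate 4 and 0.01 without BA replicate 5, with a range of -0.17 to 0.03. The causes were not tested.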
